A study of Homo sapiens with 2 samples.

Results

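The 8 genes described here encode the enzymes that write and remove DNA methylation and their partner proteins: DNMT1, UHRF1, DNMT3A, DNMT3B, DNMT3L, TET1, TET2 and TET3. They were chosen by symbol, all 8 among the 36601 genes of the count tables, and were read in single cells of the naive human embryonic stem cell line H9. One library came from cells given 25 nM of a dye-labelled oligonucleotide antisense to LINE1 RNA (ASO-L1), and the other from cells given the matching sense oligonucleotide (SO-L1). The RSeT medium of both cultures held DZNep (10 nM) and TSA (5 nM), and until hour 24 also Trans-ISRIB (0.7 µM), the caspase inhibitor emricasan (5 µM) and the ROCK inhibitor Y-27632 (10 µM). Cells were collected at hour 48, when 100000 dye-positive cells per group were sorted, so both libraries hold cells that took up an oligonucleotide. DZNep blocks the hydrolase that clears S-adenosylhomocysteine, the by-product that inhibits methyl transfer, and TSA blocks histone deacetylases; both were present in each group. The series concerns repression of the 8-cell (8C) state, the genes that the human embryo turns on when its genome becomes active.

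DNA methylation is copied at replication by DNMT1, which UHRF1 brings to DNA whose new strand is still unmethylated. DNMT3A and DNMT3B place methyl groups on unmethylated DNA, and DNMT3L, which has no catalytic activity of its own, binds and stimulates them. The TET enzymes oxidise methylcytosine as a step towards its removal. Naive human stem cells and preimplantation embryos are known for low DNA methylation, and DNMT3L is a known marker of the naive state. DPPA3, a maternal and naive-state factor, is known to keep UHRF1 away from chromatin.

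Cells were kept with 1000 or more detected genes and under 20% of UMIs (counted molecules) from mitochondrial genes, which left 9084 ASO-L1 and 6553 SO-L1 cells. They were split at a mitochondrial share of 2%. The ASO-L1 library held 2531 cells below 2% (called low-mitochondrial cells) and 6553 other cells, and the SO-L1 library 1857 and 4696. The low-mitochondrial cells were nearly without mitochondrial RNA, with a median share of 0.133% in ASO-L1 and 0.148% in SO-L1. They were nevertheless deep, with median counts of 44720 UMIs in ASO-L1 and 33612 in SO-L1, against 56296 and 45154 in the other cells. Pluripotency genes were present in every class, and POU5F1 stood at 609 and 956 UMIs per 1000000 non-mitochondrial UMIs in low-mitochondrial ASO-L1 and SO-L1 cells, and at 1020 and 1041 in the other cells. Markers of other lineages differed too. In low-mitochondrial cells the 7 fibroblast markers summed to 251 in ASO-L1 and 80.8 in SO-L1, where 2 were at 0. Of these sums TAGLN alone held 181 and 18.0. COL1A1 stood at 34.0 and 17.8, and COL1A2 went the other way, at 34.9 and 44.8. The 7 mesendoderm markers summed to 148 and 17.8, of which CER1 alone held 121 and 8.23. The 5 immune markers stood at 12.8 and 11.2. The part of these differences in the results below was not tested.

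The libraries shared 6105 barcode sequences. The copy with fewer UMIs held a median of 1.33% of the UMIs of the other copy. Such minor copies made up 3 of the kept ASO-L1 cells and 253 of the kept SO-L1 cells, and 6 of the SO-L1 copies counted as having TPRX1 or ZSCAN4. Leaving out the minor copies alone changed no call on the 8 genes. Leaving out every shared barcode removed 5308 ASO-L1 and 1062 SO-L1 cells. Those were the deeper cells, with medians of 61913 against 39099 UMIs for shared and unshared barcodes in ASO-L1. Where that step moves a result, the moved value is given beside it in some cases only.

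Levels are in UPM, the UMIs of a gene per 1000000 UMIs of all non-mitochondrial genes, summed over the cells of a group. Since 1 library stands for each group and its cells share that library, no test and no p-value can be had. Intervals are exact 95% intervals that cover counting error only, and "higher" and "lower" compare these 2 libraries. A gene was called from 1.5-fold upwards, among genes with 100 or more UMIs over both groups and 10 or more expected in the smaller group. With the main settings all 8 genes passed that filter in all comparisons below. Under some alternatives fewer of them passed, as given in the last section. The counts are of 3' ends and were not divided by transcript length, so no ranking of the 8 genes by level is read from them.

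**Figure D1:**
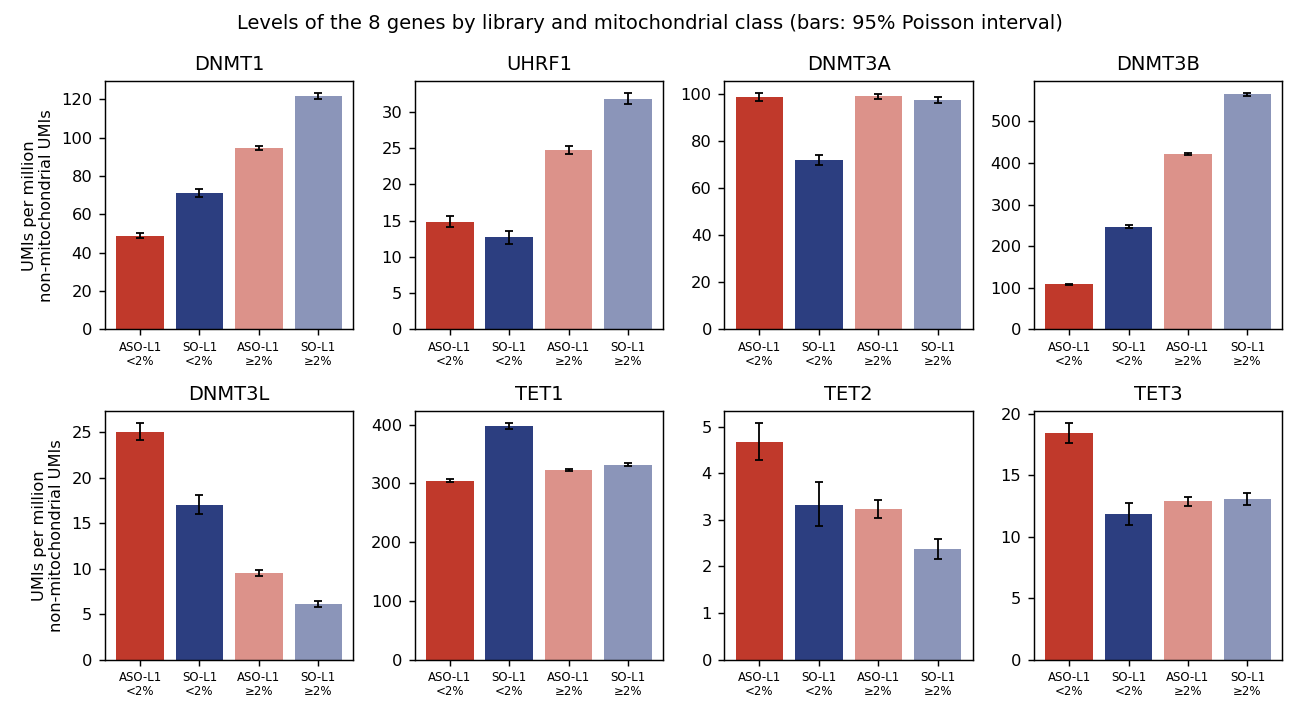
Level of each of the 8 genes (vertical axis, UPM, from 0) in ASO-L1 and SO-L1 cells below 2% mitochondrial UMIs and at 2% or more; bars are exact 95% Poisson intervals. DNMT3B is lowest in low-mitochondrial ASO-L1 cells, at 108, and DNMT3L is highest there, at 25.1.

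DNMT3B and DNMT3L differed between the classes of cells in opposite directions. In the ASO-L1 library, low-mitochondrial cells had lower DNMT3B, DNMT1 and UHRF1 and higher DNMT3L than the other cells. That is 3 of 8 genes lower and 1 higher, where 12.9% of 21455 genes were lower and 27.1% higher. The SO-L1 library gave the same counts, 3 lower and 1 higher, where 6.46% of 19452 genes were lower and 20% higher. The genes called were the same 4 in both libraries. The median log2 ratio of the 8 genes was -0.04 in ASO-L1 (0.14 over all genes tested) and -0.29 in SO-L1 (0.09 over all genes). Scaling by the median of gene ratios moved all genes by 0.12 on the log2 scale in the ASO-L1 comparison and changed no call there.

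Between the libraries fewer of the genes were called. In low-mitochondrial cells DNMT3B was lower and TET3 higher in ASO-L1, 1 of 8 in each direction, where 24.9% of 19163 genes were lower and 22.9% higher. Their median log2 ratio was 0.34 against -0.01 over all genes, while their summed level was lower, at 624 in ASO-L1 and 833 in SO-L1. In the other cells DNMT3L alone was called, as higher in ASO-L1, where 12.2% of 21479 genes were higher and 15.7% lower. These shares are near or below those of all genes, so the counts say nothing particular about the 8 genes, and the values of each gene follow.

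DNMT1, the maintenance methyltransferase (ENSG00000130816; hg38 chromosome 19, 10133345 to 10231286, minus strand), stood at 48.9 UPM in low-mitochondrial ASO-L1 cells and 71.3 in low-mitochondrial SO-L1 cells. In the other cells it stood at 94.7 in ASO-L1 and 122 in SO-L1. It was therefore lower in ASO-L1 in both classes, at 0.685 times the SO-L1 level (0.658 to 0.714) in low-mitochondrial cells and 0.777 times (0.764 to 0.790) in the others. Neither ratio was called. Without the shared barcodes they were 0.480 and 0.659, and both were called, as was the first with thinned cells, at 0.662. Within each library DNMT1 was lower in low-mitochondrial cells, at 0.516 times the level of the other cells in ASO-L1 and 0.585 times in SO-L1. After each cell was thinned to 8000 UMIs, 28.0% of low-mitochondrial ASO-L1 cells and 40.7% of low-mitochondrial SO-L1 cells held a DNMT1 UMI, and 48.1% and 57.0% of the other cells. Unthinned, the shares were 63.3% and 71.7%, and 91.3% and 91.6%. No cell type in these libraries is known to lack the 8 genes, so no background share could be given. S1PR2 overlaps DNMT1 on the same strand, with 1465 UMIs of its own in ASO-L1, so a small part of either count may belong to the other.

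UHRF1, the reader that recruits DNMT1 (ENSG00000276043; chromosome 19, 4903080 to 4962154, plus strand), differed between the libraries in opposite directions in the 2 classes. It stood at 14.9 in low-mitochondrial ASO-L1 cells and 12.7 in low-mitochondrial SO-L1 cells, a ratio of 1.17 (1.07 to 1.28). Among other cells it stood at 24.8 in ASO-L1 and 31.8 in SO-L1, a ratio of 0.778 (0.753 to 0.804). Low-mitochondrial cells held 0.600 times the level of the other cells in ASO-L1 and 0.398 times in SO-L1. The ASO-L1 value was 0.813, and no longer called, without the shared barcodes. Cell cycle genes also differed between the low-mitochondrial cells of the libraries, where 22.9% of all genes were higher in ASO-L1 and 24.9% lower. The 54 G2M genes summed to 6925 in ASO-L1 and 4429 in SO-L1, with 27 higher and 1 lower. The 42 S phase genes had nearly equal sums, 2339 and 2324, with 13 higher and 6 lower. The replication factor GINS2 was one of the lower genes, at 0.258 times. Their part in the UHRF1 ratio was not tested.

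Both maintenance genes were higher in groups of cells with a larger share of S phase genes. Cells of each library and class were ranked by their summed share of 42 S phase genes, without the 8 genes, into 3 equal groups, and the upper group was set against the lower. UHRF1 was higher in the upper group in all 4 sets of cells, by 2.32-fold in low-mitochondrial ASO-L1 cells, 6.20-fold in low-mitochondrial SO-L1 cells, 4.57-fold in other ASO-L1 cells and 2.60-fold in other SO-L1 cells. DNMT1 was 2.24-fold, 2.14-fold, 2.01-fold and 1.32-fold higher in the same order. DNMT3B did the same, by 5.16-fold, 2.59-fold and 2.71-fold, but only by 1.24-fold in other SO-L1 cells. TET1 stood between 0.987-fold and 1.28-fold. Ranking by G2M genes gave no such pattern, and UHRF1 was lower in the upper group at 0.560, 0.935, 0.550 and 0.607 times. In cells thinned to 8000 UMIs the S phase ratios of UHRF1 were 2.05, 5.45, 3.33 and 2.27.

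The annotated promoters of DNMT1 and UHRF1 are shown as those of the 2 maintenance genes, and because they hold the letters searched for. DNMT3B also followed the S phase genes, more steeply than DNMT1 in 3 of the 4 sets of cells. Its 1 promoter entry holds no match, but lies around 32779702 to 32779871, while the gene starts at 32762385. The sequence at the start of the DNMT3B gene was therefore not searched. The 2 promoters shown also lie inside the outer bounds of their genes. They are RefSeq sequences of GRCh38.p14, given from 150 bases before to 20 bases after the annotated start. Capitals mark E2F-type letters, from a search for TTTCCCGC, TTTCGCGC, TTTGCCGC and TTTGGCGC on both strands, letters that were chosen with these sequences known. E2F factors are known regulators of replication genes.
DNMT1, chr19:10194934-10195103, minus strand: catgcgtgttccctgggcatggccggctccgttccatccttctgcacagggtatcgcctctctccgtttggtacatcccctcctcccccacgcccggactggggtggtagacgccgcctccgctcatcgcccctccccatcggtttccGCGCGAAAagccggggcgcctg
UHRF1, chr19:4909351-4909520, plus strand: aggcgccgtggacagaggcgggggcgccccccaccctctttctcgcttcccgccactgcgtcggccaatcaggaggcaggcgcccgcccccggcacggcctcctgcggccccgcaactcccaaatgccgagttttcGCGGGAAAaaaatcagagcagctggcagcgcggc
In DNMT1 the match (TTTCGCGC, read on the opposite strand) lies across the annotated start, and in UHRF1 (TTTCCCGC, also on the opposite strand) just before it. Over windows of 300 bases, the letters were found in the single DNMT1 entry and in 2 of the 3 UHRF1 entries. They were found in none of the promoter entries of 5 other genes, DNMT3B with its 1 entry inside the gene among them. DNMT3L had no entry. Among all promoters of the table, 3.31% of 35116 hold them, which is 3.99% of 27305 genes. A match is a description of letters and not a site.

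DNMT3A, a de novo methyltransferase (ENSG00000119772; chromosome 2, 25227855 to 25342590, minus strand), stood close together in 3 of the 4 groups and lower in low-mitochondrial SO-L1 cells. It stood at 98.5 in low-mitochondrial ASO-L1 cells, 71.8 in low-mitochondrial SO-L1 cells, 98.8 in other ASO-L1 cells and 97.3 in other SO-L1 cells. The ratio of ASO-L1 over SO-L1 was 1.37 (1.32 to 1.42) in low-mitochondrial cells and 1.02 (0.998 to 1.03) in the others. Low-mitochondrial cells stood at 0.997 times the other cells in ASO-L1 and 0.738 times in SO-L1.

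DNMT3B, the other de novo methyltransferase (ENSG00000088305; chromosome 20, 32762385 to 32809356, plus strand), showed the widest range over the 4 groups. It stood at 108 in low-mitochondrial ASO-L1 cells and 247 in low-mitochondrial SO-L1 cells, a ratio of 0.438 (0.428 to 0.449). In the other cells it stood at 422 in ASO-L1 and 565 in SO-L1, a ratio of 0.746 (0.741 to 0.752). Low-mitochondrial cells held 0.257 times the level of the other cells in ASO-L1 and 0.438 times in SO-L1, so the class difference was present in both libraries. Over the 9 alternatives the low-mitochondrial ratio of ASO-L1 over SO-L1 ran between 0.333 and 0.460 and stayed called. Among other cells it was 0.572, and called, without the shared barcodes.

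DNMT3B detection showed how the level was spread over cells. After thinning to 8000 UMIs, 78.9% of other ASO-L1 cells held a DNMT3B UMI (95% interval 77.8% to 79.9%), with a median of 2. In other SO-L1 cells 95.3% (94.7% to 95.9%) did, with a median of 4, and the 90th percentile was 7 UMIs in both. The top of the distribution was thus alike, and ASO-L1 held more cells with few or no DNMT3B UMIs. In low-mitochondrial cells the thinned shares were 35.7% in ASO-L1 and 70.4% in SO-L1, and the unthinned shares 66.2% and 85.6%. The 5% of low-mitochondrial cells with most DNMT3B UMIs held 40.1% of them in ASO-L1 and 23.8% in SO-L1.

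DNMT3L, the stimulator of the de novo enzymes (ENSG00000142182; chromosome 21, 44246339 to 44262216, minus strand), ran the other way. It stood at 25.1 in low-mitochondrial ASO-L1 cells and 17.0 in low-mitochondrial SO-L1 cells, a ratio of 1.47 (1.37 to 1.59). That ratio was 0.972 without the shared barcodes, and passed 1.5-fold with thinned cells (1.57) and with median-of-ratios scaling (1.55). DNMT3L in the other cells stood at 9.51 in ASO-L1 and 6.13 in SO-L1, a ratio of 1.55 (1.45 to 1.66), which fell below 1.5 with thinned cells (1.37), with the mean of per-cell levels (1.33) and with classes set at 1% and 3% (1.47). Low-mitochondrial cells held 2.64 times the level of the other cells in ASO-L1 and 2.78 times in SO-L1. Over the 9 alternatives these ratios ran from 1.62 to 2.85 and from 2.27 to 3.05, and both stayed called. DNMT3L came from few cells. The 5% of cells with most of it held between 53.9% and 64.0% of its UMIs in the 4 groups, a spread that the intervals leave out. AP001059.1, on the opposite strand of DNMT3L, had 23 UMIs in ASO-L1 and 21 in SO-L1, and no source used here says whether the counting used strand.

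The balance of the de novo genes therefore differed between the groups. For each 100 DNMT3B UMIs there were 23.2 DNMT3L UMIs in low-mitochondrial ASO-L1 cells and 6.88 in low-mitochondrial SO-L1 cells, and 2.25 and 1.08 in the other cells. For DNMT3A the same numbers were 90.9 and 29.0, and 23.4 and 17.2. The ratios between genes depend on how well each 3' end is captured, so only their differences between groups are read.

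TET1 (ENSG00000138336; chromosome 10, 68560656 to 68694482, plus strand) was similar in 3 of the groups and higher in low-mitochondrial SO-L1 cells. It stood at 305 in low-mitochondrial ASO-L1 cells and 398 in low-mitochondrial SO-L1 cells, a ratio of 0.766 (0.754 to 0.779). In the other cells it stood at 322 in ASO-L1 and 332 in SO-L1. It was found in most cells of every group, with thinned shares of 75.3% and 89.8% in low-mitochondrial ASO-L1 and SO-L1 cells and 87.0% and 88.6% in the others.

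TET2 (ENSG00000168769; chromosome 4, 105145875 to 105279816, plus strand) had few UMIs. It stood at 4.66 in low-mitochondrial ASO-L1 cells and 3.32 in low-mitochondrial SO-L1 cells, on 533 and 196 UMIs, a ratio of 1.41 (1.19 to 1.66). It passed 1.5-fold in 3 alternatives, at 1.65 with thinned cells, 1.66 with the mean of per-cell levels and 1.74 without the shared barcodes. Its other-cell levels were 3.23 in ASO-L1 and 2.37 in SO-L1, a ratio of 1.36 (1.22 to 1.52). TET2-AS1, on the opposite strand, had 13 UMIs in ASO-L1 and 8 in SO-L1.

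TET3, the TET enzyme best known from oocytes and zygotes (ENSG00000187605; chromosome 2, 73986404 to 74108176, plus strand), stood at 18.4 in low-mitochondrial ASO-L1 cells and 11.8 in low-mitochondrial SO-L1 cells. The ratio was 1.56 (1.43 to 1.70), and 1.47 with the mean of per-cell levels, which was not called. Its level in the other cells was 12.9 in ASO-L1 and 13.0 in SO-L1, a ratio of 0.988 (0.941 to 1.04).

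**Figure D2:**
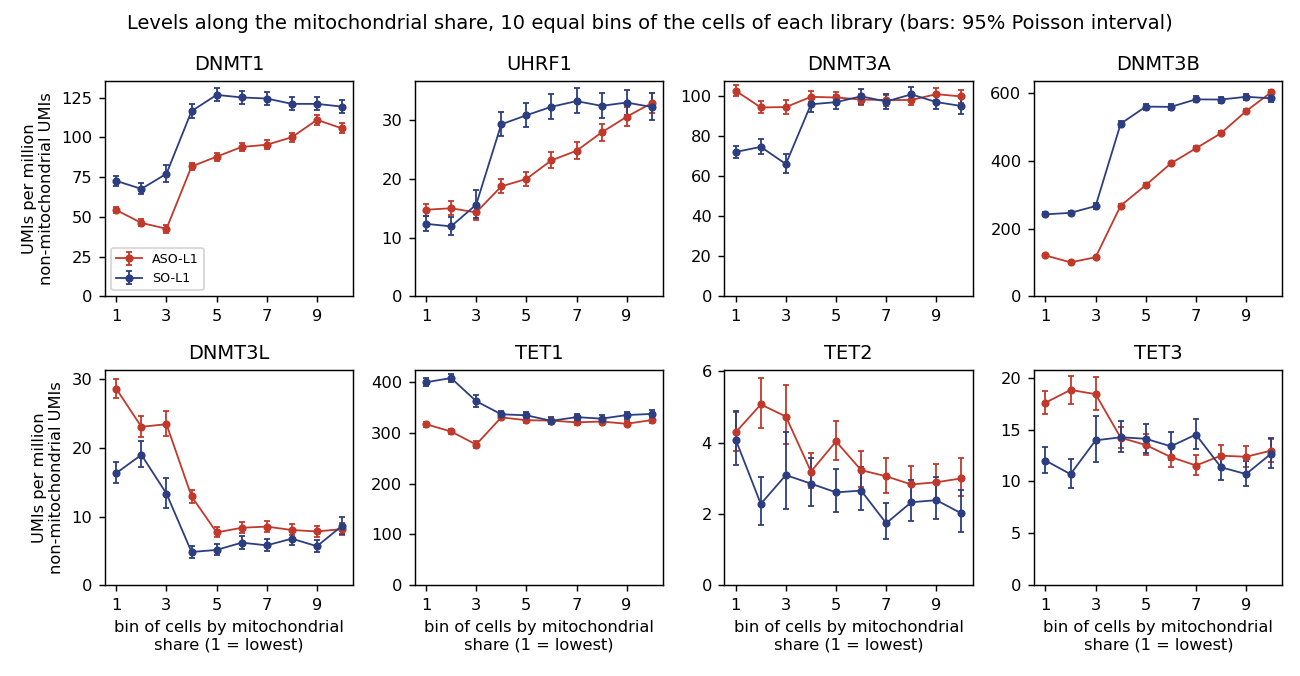
Level of each gene (vertical axis, UPM) in 10 equal bins of the kept cells of each library ranked by mitochondrial share, from 1 (lowest) to 10; bars are exact 95% Poisson intervals. DNMT3B climbs across bins 4 to 10 in ASO-L1, from 268 to 604, and stays between 511 and 590 in SO-L1.

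Ranking cells by mitochondrial share in finer steps showed a step for some genes and a slope for others. The lowest 3 of 10 equal bins of each library had medians below the 2% line, from 0.0624% to 0.882% in ASO-L1 and from 0.0651% to 0.701% in SO-L1. DNMT3B stood between 101 and 121 in those bins in ASO-L1 and between 243 and 267 in SO-L1. From bin 4 to bin 10 it climbed steadily in ASO-L1, with 268, 329, 393, 438, 483, 548 and 604 UPM. In SO-L1 the same bins lay between 511 and 590. UHRF1 showed the same slope in ASO-L1, from 18.7 in bin 4 to 32.9 in bin 10, while SO-L1 lay between 29.3 and 33.3. In the highest bin the libraries were alike, with DNMT3B at 604 in ASO-L1 and 586 in SO-L1 and UHRF1 at 32.9 and 32.3. Bins were cut within each library, so bins of the same number held unlike mitochondrial shares. The medians were 5.04% in ASO-L1 and 6.12% in SO-L1 in bin 4, and 11.2% and 12.7% in bin 10. In ASO-L1 DNMT3L showed a step and no slope, with 12.9 in bin 4 and between 7.69 and 8.54 in bins 5 to 10. In SO-L1 it was higher in bin 10, at 8.65 (7.52 to 9.90), than in bin 4, at 4.84 (4.03 to 5.77). DNMT3A and TET1 stayed within 97.9 to 101 and 318 to 330 over bins 4 to 10 of ASO-L1.

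The cells that carry 8C transcripts were then set against the rest. A cell counted as an 8C-gene cell with 1 or more UMIs of TPRX1 or ZSCAN4, a homeobox and a zinc finger gene of the 8C stage. There were 529 among low-mitochondrial ASO-L1 cells (20.9%, 19.3% to 22.5%) and 95 among low-mitochondrial SO-L1 cells (5.12%, 4.16% to 6.22%), and 442 (6.75%) and 85 (1.81%) among the other cells. Many held exactly 1 such UMI, 218 and 72 in the low-mitochondrial cells and 346 and 80 in the others. The part of free RNA in such single UMIs was not tested. The 8C-gene cells were deeper than the rest, with medians of 52800 and 42696.5 UMIs in low-mitochondrial ASO-L1 cells.

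**Figure D3:**
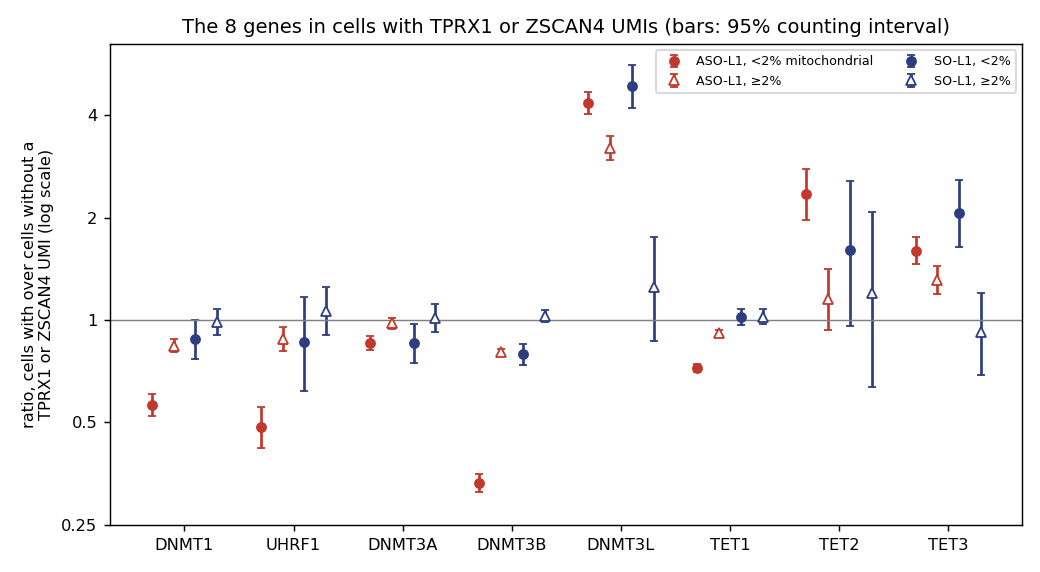
Ratio of each gene in 8C-gene cells (1 or more TPRX1 or ZSCAN4 UMIs) over the other cells of the same library and mitochondrial class (vertical log axis); bars are exact 95% intervals for counting error. DNMT3L is at 4.34 and 4.86 in low-mitochondrial ASO-L1 and SO-L1 cells, and DNMT3B is at 0.332 in low-mitochondrial ASO-L1 cells.

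In low-mitochondrial ASO-L1 cells, 8C-gene cells had less DNMT1, UHRF1 and DNMT3B and more DNMT3L, TET2 and TET3. That is 3 of 8 genes higher and 3 lower, where 7.16% of 17727 genes were higher and 20.8% lower. The median log2 ratio of the 8 genes was -0.34, against -0.16 over all genes tested. Scaling by the median of gene ratios moved all genes by -0.13 on the log2 scale here. In the other ASO-L1 cells DNMT3L alone was called, as higher, where 9.26% of 19385 genes were higher and 2.26% lower. In low-mitochondrial SO-L1 cells DNMT3L, TET2 and TET3 were higher and none was lower, where 7.38% of 14459 genes were higher and 5.75% lower. In the other SO-L1 cells 0 of 8 were called, where 2.36% of 14163 genes were higher and 2.5% lower.

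DNMT3L stood at 59.3 in 8C-gene cells and 13.6 in the cells without among low-mitochondrial ASO-L1 cells, 4.34-fold higher (4.03 to 4.68). The SO-L1 values were close, 65.9 and 13.6, or 4.86-fold (4.20 to 5.60). In other ASO-L1 cells DNMT3L was 25.9 and 8.07, 3.21-fold higher (2.95 to 3.48), a value that fell to 1.46 without the shared barcodes. In low-mitochondrial ASO-L1 cells the same step gave 3.77, and ZSCAN4 alone as the marker gave 2.44, both still called. In the cells without an 8C transcript, the low-mitochondrial ASO-L1 and SO-L1 levels of DNMT3L were 13.6 and 13.6, a ratio of 1.01 (0.917 to 1.10). In 8C-gene cells alone they were 59.3 and 65.9, a ratio of 0.900 (0.789 to 1.03). Those cells differed in make-up, since 218 of 529 ASO-L1 and 72 of 95 SO-L1 cells held a single TPRX1 or ZSCAN4 UMI. With 1 such UMI DNMT3L stood at 41.8 in ASO-L1 and 37.9 in SO-L1, with 2 to 4 at 78.5 and 147, and with 5 or more at 67.1 and 165, the SO-L1 values of the last 2 steps resting on 10 and 13 cells. Without 8C-gene cells, low-mitochondrial cells still held more DNMT3L than the other cells, 13.6 against 8.07 in ASO-L1 (1.69-fold) and 13.6 against 6.09 in SO-L1 (2.23-fold). Of the 8 genes, 1 was higher and 2 lower in ASO-L1, where 26% of 20882 genes were higher and 9.71% lower, and 1 higher and 3 lower in SO-L1, where 19.4% of 19315 genes were higher and 6.61% lower.

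DNMT3B behaved differently. It stood at 43.2 in 8C-gene cells and 130 in the cells without among low-mitochondrial ASO-L1 cells, 0.332 times (0.312 to 0.352). In low-mitochondrial SO-L1 cells it stood at 199 and 251, 0.793 times (0.737 to 0.853), and in the other SO-L1 cells at 580 and 565. Without 8C-gene cells the low-mitochondrial ratio of ASO-L1 over SO-L1 was still 0.519 (0.506 to 0.532), with levels of 130 and 251. This was 1 of 8 genes lower and 0 higher, where 22.7% of 18395 genes were lower and 21.3% higher. Among the other cells without an 8C transcript 0 of 8 were called, where 11% of 21185 genes were higher and 15.8% lower, and DNMT3B was at 0.759 times. In 8C-gene cells alone DNMT3B stood at 43.2 in ASO-L1 and 199 in SO-L1, 0.217 times (0.198 to 0.238). DNMT1 was 0.491 times and TET1 0.585 times there, so 3 of 8 genes were lower, where 29.6% of 13776 genes were. TET2 was the only one of the 8 higher there, at 1.59 (1.01 to 2.66) on 234 and 20 UMIs, where 22.8% of genes were higher. The SO-L1 side rests on 95 cells, 72 of them with a single TPRX1 or ZSCAN4 UMI.

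The maintenance genes were lower in 8C-gene cells of the low-mitochondrial ASO-L1 class. DNMT1 stood at 30.9 and 54.9, 0.564 times (0.524 to 0.606), and UHRF1 at 8.27 and 17.1, 0.485 times (0.421 to 0.556). UHRF1 was at 0.765, and not called, without the shared barcodes. Both ratios were closer to 1 in low-mitochondrial SO-L1 cells, at 0.877 (0.768 to 0.998) for DNMT1 and 0.861 (0.618 to 1.17) for UHRF1, which had 43 UMIs in 8C-gene cells. With cells called from 2 such UMIs upwards, 23 cells, they were 0.667 and 0.341, the last on 4 UMIs, and with ZSCAN4 alone DNMT1 was at 0.636. DPPA3, the antagonist of UHRF1, stood at 299 in 8C-gene cells and 23.3 in the rest of the low-mitochondrial ASO-L1 cells, 12.8-fold higher (12.2 to 13.4). The SO-L1 levels of DPPA3 in that class were 81.5 and 17.7, 4.62-fold higher. Of the 42 S phase genes, 9 were lower and 1 higher in 8C-gene cells of low-mitochondrial ASO-L1, where 20.8% of all genes were lower and 7.16% higher. Their sums were 2162 in 8C-gene cells and 2398 in the rest. GINS2 stood at 0.337 times, BRIP1 at 0.362 times and NASP at 0.750 times. The part of DPPA3 or of S phase genes in the DNMT1 and UHRF1 ratios was not tested.

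TET2 stood at 8.17 in 8C-gene cells and 3.49 in the rest of the low-mitochondrial ASO-L1 cells, 2.34-fold higher (1.96 to 2.79). In low-mitochondrial SO-L1 cells it was 1.61-fold, with an interval from 0.958 to 2.56 on 20 UMIs that includes equal levels. TET3 stood at 25.6 and 16.0 in the ASO-L1 class, 1.60-fold higher (1.46 to 1.75), and at 22.8 and 11.0 in the SO-L1 class, 2.07-fold higher (1.63 to 2.58). The ASO-L1 value depended on the cells used. It was 1.38 with thinned cells, 1.40 with the mean of per-cell levels, 1.36 when ZSCAN4 alone defined the cells, and 0.910 without the shared barcodes, where 168 8C-gene cells were left. TET1 stood at 237 and 327 in the ASO-L1 class, 0.724 times (0.705 to 0.744), and passed the 1.5-fold line downwards in 5 of 12 alternatives. In the SO-L1 class TET1 was at 405 and 397.

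**Figure D4:**
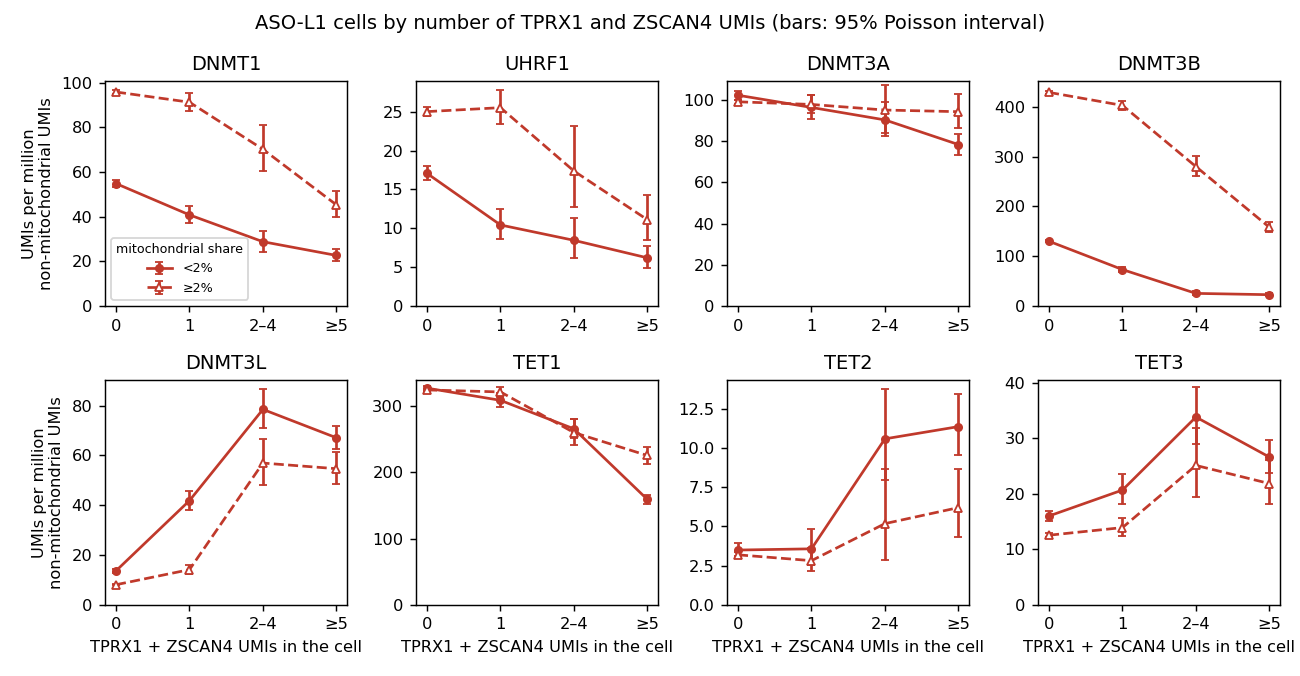
Level of each gene (vertical axis, UPM) in ASO-L1 cells grouped by their number of TPRX1 and ZSCAN4 UMIs (0, 1, 2 to 4, 5 or more), for cells below 2% mitochondrial UMIs and at 2% or more; bars are exact 95% Poisson intervals. DNMT3B in low-mitochondrial cells is 130 without such UMIs and 23.0 with 5 or more.

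With more 8C transcripts per cell the differences in ASO-L1 were larger. The low-mitochondrial class held 2002, 218, 99 and 212 cells with 0, 1, 2 to 4 and 5 or more TPRX1 and ZSCAN4 UMIs. Along these steps DNMT3B stood at 130, 73.3, 25.6 and 23.0, DNMT1 at 54.9, 40.9, 28.9 and 22.7, and UHRF1 at 17.1, 10.4, 8.47 and 6.21. TET1 stood at 327, 309, 266 and 159. DNMT3L stood at 13.6, 41.8, 78.5 and 67.1, so its level was no higher in the last group than in the one before. TET2 differed only from 2 such UMIs upwards, with 3.49, 3.57, 10.6 and 11.4. TET3 stood at 16.0, 20.7, 33.9 and 26.6. DNMT3A varied least, with 102, 96.3, 90.2 and 78.3.

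The other ASO-L1 cells numbered 6111, 346, 37 and 59 along the same steps. DNMT3B stood at 429, 403, 280 and 158 there, DNMT3L at 8.07, 14.1, 56.9 and 54.7, and DNMT1 at 95.9, 91.3, 70.2 and 45.4. UHRF1 stood at 25.0, 25.5, 17.4 and 11.1 and TET2 at 3.19, 2.81, 5.18 and 6.20, so neither differed at the first step by more than its counting error. Cells with 5 or more such UMIs were also the deepest of this class, with a median of 99566 UMIs against 55899 without any. Only 10 and 13 low-mitochondrial SO-L1 cells had 2 to 4 and 5 or more such UMIs. DNMT3B stood at 251, 232, 97.4 and 85.2 along the 4 steps there, and DNMT3L at 13.6, 37.9, 147 and 165. Calling cells from 2 UMIs upwards put DNMT3B at 0.361 and DNMT3L at 11.6 times the level of the cells without in that class. Of the 776 DNMT3B UMIs of all low-mitochondrial SO-L1 8C-gene cells, 693 lay in the 72 cells with 1 such UMI. Those cells stood closer to the cells without any than the cells with 2 or more did. The libraries also differed among cells with exactly 1 such UMI. DNMT3B stood there at 232 against 251 without in SO-L1, and at 73.3 against 130 in low-mitochondrial ASO-L1 cells. The part of the number of such UMIs in the difference between the libraries was not tested.

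For each 100 DNMT3B UMIs, 8C-gene cells of the low-mitochondrial ASO-L1 class held 137 DNMT3L UMIs and the rest 10.5. In low-mitochondrial SO-L1 cells the numbers were 33.1 and 5.41. In the other cells they were 7.51 and 1.88 in ASO-L1 and 1.32 and 1.08 in SO-L1.

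DNMT3L was not confined to 8C-gene cells. Among low-mitochondrial cells without an 8C transcript, 370 of 2002 ASO-L1 cells and 328 of 1762 SO-L1 cells held a DNMT3L UMI. In ASO-L1 these cells had TET1 at 406, against 301 in the cells without DNMT3L, a ratio of 1.35 (1.32 to 1.38), and DNMT3B at 108 against 138. In SO-L1, TET1 stood at 425 against 389 and DNMT3B at 236 against 255. TET1 was thus higher with DNMT3L in these cells and lower in 8C-gene cells of ASO-L1. Cells with a DNMT3L UMI were deeper, with medians of 55523 and 39607.5 UMIs in ASO-L1, and that part was not tested.

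**Figure D5:**
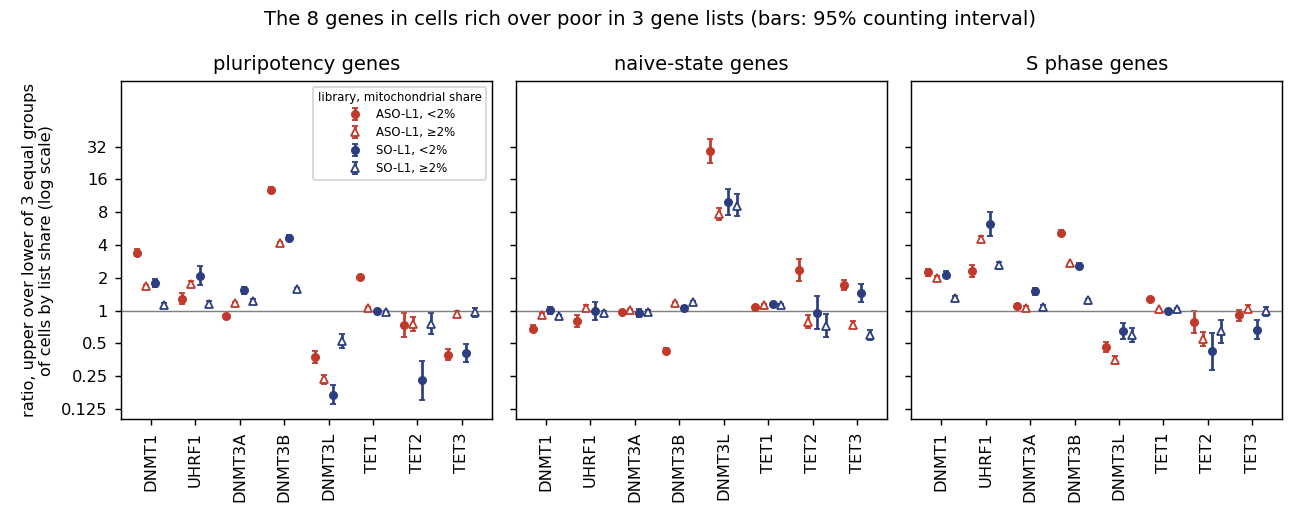
Ratio of each gene (vertical log axis) in the upper over the lower of 3 equal groups of cells ranked by their share of pluripotency, naive-state or S phase genes, within each library and mitochondrial class; bars are exact 95% intervals for counting error. DNMT3B follows the pluripotency genes, 12.8-fold in low-mitochondrial ASO-L1 cells, and DNMT3L the naive-state genes, 29.0-fold in those cells.

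General and naive pluripotency genes separated the 2 de novo factors. With cells ranked by 12 general pluripotency genes, DNMT3B was higher in the upper than in the lower group by 12.8-fold in low-mitochondrial ASO-L1 cells, 4.63-fold in low-mitochondrial SO-L1 cells, 4.21-fold in other ASO-L1 cells and 1.59-fold in other SO-L1 cells. DNMT3L was lower in all 4 sets of cells, at 0.373, 0.169, 0.234 and 0.523 times. TET3 was lower in the low-mitochondrial groups, at 0.394 and 0.408 times. With cells ranked by 17 naive-state genes, without DNMT3L, it was DNMT3L that was higher, by 29.0-fold, 9.84-fold, 7.69-fold and 9.19-fold. That list shares ARGFX, KHDC1L and KLF17 with the list of 8C genes, and its sum was 4946 in 8C-gene cells and 1607 in the rest of low-mitochondrial ASO-L1 cells, so the ranking by naive-state genes also sorts 8C-gene cells. DNMT3B stood at 0.429 times in low-mitochondrial ASO-L1 cells and between 1.05 and 1.19 times in the other groups. DNMT3A stayed between 0.945 and 1.01 times. The pluripotency, naive-state and S phase lists as used hold none of the 8 genes and share no gene with each other.

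The pluripotency list itself was lower in low-mitochondrial ASO-L1 cells, with a sum of 2465 UPM against 3948 in SO-L1 and 7 of 12 genes lower. Cells were therefore compared between the libraries within 4 bands of that list's share, with the same bounds for both. In low-mitochondrial cells the DNMT3B ratio of ASO-L1 over SO-L1 was 0.327, 0.462, 0.618 and 1.08 from the lowest to the highest band. The other cells gave 0.378, 0.751, 0.885 and 0.963. In the highest band the levels were 407 in ASO-L1 and 377 in SO-L1 in low-mitochondrial cells, and 684 and 711 in the others. The highest band of the low-mitochondrial class held 418 ASO-L1 and 679 SO-L1 cells, and the lowest 928 and 169. DNMT3A was higher in ASO-L1 in each band of that class, at 1.52, 1.72, 1.29 and 1.23 times. DNMT3L, at 1.47 times over the whole class, stood at 0.862, 0.967, 0.922 and 0.799 times in its bands, with intervals that all include equal levels. In the other cells DNMT3L stood at 1.93, 1.17, 1.06 and 0.843 times.

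Partner genes of the pathway were read from lists, and the shares of all genes given for each comparison above apply to their counts. Of 11 maintenance partners, 2 were higher and 1 lower in low-mitochondrial ASO-L1 cells against SO-L1. CDCA7, a partner of the remodeller HELLS, was 1.67-fold and the deacetylase HDAC1 1.56-fold higher, while the histone methyltransferase EHMT2 stood at 0.572 times. Within ASO-L1, 4 of the 11 were lower in low-mitochondrial cells than in the others and none higher. HELLS, a remodeller needed for DNA methylation, stood at 90.3 and 180, 0.502 times, and CDCA7 at 0.474 times. In 8C-gene cells of low-mitochondrial ASO-L1, HELLS stood at 48.8 against 104, 0.468 times, and PCLAF, a PCNA-binding factor, at 0.586 times. HELLS and CDCA7 are also in the S phase list by which cells were ranked above, so their values are no separate reading of the maintenance pathway.

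Of 13 targeting and silencing partners, 1 was higher and 2 lower in low-mitochondrial ASO-L1 cells against SO-L1. The H3K27 methyltransferase EZH2 was at 0.433 times and the imprint regulator ZFP57 at 0.632 times. The only one higher was the histone demethylase KDM1B, at 1.52 times, named here after its value was seen. TRIM28, the corepressor of KRAB zinc finger proteins, had a ratio of 1.33 and was not called. Of 20 demethylation partners, 6 were higher and 6 lower. GADD45B and GADD45A, stress-induced genes that have been linked to demethylation, were 8.58-fold and 4.21-fold higher, and PARP1 was at 0.539 times. GADD45A was also higher in low-mitochondrial than in other cells of both libraries, by 5.82-fold in ASO-L1 and 7.08-fold in SO-L1. Of 11 methyl-CpG and CpG readers 2 were higher and 2 lower.

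Of 21 tested genes of the methyl donor and folate cycles, 5 were higher and 5 lower in low-mitochondrial ASO-L1 cells against SO-L1. MTHFD2 was 2.04-fold higher. AHCY, the hydrolase that DZNep blocks, had a ratio of 1.07 and was not called. AHCY stood lower in low-mitochondrial than in other cells, at 0.669 times in ASO-L1 and 0.724 times in SO-L1. Of 12 tested germline genes known to be silenced by promoter methylation, 2 were higher and 3 lower in ASO-L1. Against the other cells of the same library, low-mitochondrial cells had 7 of 14 tested germline genes higher in ASO-L1 and 5 of 13 in SO-L1, and 0 lower in either. Of all genes, 27.1% were higher and 12.9% lower in that comparison in ASO-L1, and 20% and 6.46% in SO-L1. MAEL was 4.07-fold higher in ASO-L1 and 2.88-fold in SO-L1. HORMAD1 was 2.26-fold higher in SO-L1, and its ASO-L1 ratio of 1.40 was not called. DNA methylation itself was not measured in these cells.

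For each gene the genes of most similar pattern were sought over 20 groups of cells, the 10 bins by mitochondrial share in each library, among 12675 genes. The measure was Pearson's r of log2 levels, a description over groups that share a library and a depth. DNMT3B was most like PTPRZ1 (r = 0.997), RBX1 (0.995) and VRTN (0.993), and DNMT1 most like PAGR1 (0.992), NASP (0.990) and ECHS1 (0.990). UHRF1 was most like DCTPP1 (0.991), DNMT3A most like MIEF1 (0.962) and DNMT3L most like SNX8 (0.976). The TET genes had less close neighbours, DSTN for TET1 (0.952), RCBTB2 for TET2 (0.900) and FAM189B for TET3 (0.897). Among the 8 genes, DNMT1 and DNMT3B had r = 0.981, DNMT3B and DNMT3L r = -0.931, and DNMT3A and DNMT3B r = 0.270.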

How the data were processed

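Single-cell RNA libraries (10x 3') of ASO-L1 and SO-L1 cells, 1 per group, were read from the deposited count matrices, with raw counts of UMIs for each gene in each barcode. Per the submitters' processing notes the authors used Cell Ranger 7.1.0 and hg38. The sources used here do not give annotation release, intron counting, use of strand or cell calling, and doublets were not called here. Totals of the kept cells were 499106701 UMIs in ASO-L1 and 273349662 in SO-L1. Cells needed 1000 genes and under 20% mitochondrial UMIs. Gene positions are from GENCODE on GRCh38.

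Levels are summed UMIs of a gene per 1000000 non-mitochondrial UMIs. Ratios carry exact conditional binomial 95% intervals, levels exact Poisson and shares exact Clopper-Pearson 95% intervals, all for counting error only. Thinning drew 8000 UMIs per cell and left out 520 ASO-L1 and 649 SO-L1 cells with fewer. The ratio calculation was tested on simulated data. With 1 library per group no test was run, so p-values are not given. Alternatives were stricter and no cell filters, classes below 1% and from 3%, mitochondrial genes in the total, thinning, means of per-cell levels, median-of-ratios scaling, other rules for 8C-gene cells and, for shared barcodes, leaving all out or, chosen after seeing the data, their minor copies.

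The 8 genes, the lists and the comparisons were chosen with earlier results of these data known. From a list, up to 2 genes by size of ratio and up to 2 by UMIs could be named in a comparison, and for each of the 8 genes the 3 of most similar pattern among genes with 2000 or more UMIs. Python 3.11.15, numpy 2.4.6, scipy 1.17.1, pandas 2.3.3 and matplotlib 3.10.9 were used.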

Additional observations from a re-analysis of the deposited data

Results flagged for a closer look

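UHRF1 was 1.17 times the SO-L1 level in low-mitochondrial ASO-L1 cells and 0.778 times in the other cells, so the libraries differed in opposite directions in the 2 classes. TET1 stood in low-mitochondrial cells at 0.945 times the other cells in ASO-L1 and 1.20 times in SO-L1. The ASO-L1 value ran from 0.864 to 1.02 over the 9 alternatives and changed side in 2 of them. The SO-L1 value ran from 1.14 to 1.32. TET3 stood in low-mitochondrial cells at 1.43 times the other cells in ASO-L1 and 0.907 times in SO-L1. Its ranges over the 9 alternatives were 1.31 to 1.72, called in 2 of them, and 0.864 to 0.996. These 3 differences between differences were not tested, since each group has 1 library.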

How the results depend on the processing

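No paired analysis was possible because each group has 1 library. Over 64 ratios of the 8 genes and 642 alternative values, 48 ratios stayed on their side of 1 under every alternative run and 35 kept their call. Of the called ratios 1 reversed, TET3 in 8C-gene cells over the rest of low-mitochondrial ASO-L1 cells, which was 0.910 without the shared barcodes against 1.60. Counts of the 8 genes past 1.5-fold moved as follows, and the cause was not tested. The shares of all genes under these alternatives are not given here, so the counts say nothing particular about the 8 genes. For ASO-L1 over SO-L1 in low-mitochondrial cells, 3 were higher and 2 lower with thinned cells, 2 and 2 without the shared barcodes, and 2 higher with median-of-ratios scaling. In the other cells 0 were higher with classes at 1% and 3%, thinned cells or means of per-cell levels, and 3 were lower without the shared barcodes. For low-mitochondrial over other cells, 3 were higher in ASO-L1 with mitochondrial genes in the total, 2 with thinned cells or means of per-cell levels, and 3 without the shared barcodes. In SO-L1, 2 were higher with mitochondrial genes in the total. For 8C-gene cells over the rest in low-mitochondrial ASO-L1 cells, 1 of 7 genes tested was higher with thinned cells. In the other ASO-L1 cells, 0 were higher and 2 lower of 5 tested with thinned cells, 3 and 3 from 2 UMIs upwards, and 2 and 1 with ZSCAN4 alone. In low-mitochondrial SO-L1 cells, 0 of 4 were higher with thinned cells, 0 of 4 higher and 2 lower with ZSCAN4 alone, 1 lower with means of per-cell levels, and 3 of 7 lower from 2 UMIs upwards. In the other SO-L1 cells, 1 was higher with means of per-cell levels, and 1 was lower without the shared barcodes, from 2 UMIs upwards and with ZSCAN4 alone. With cells ranked by G2M genes, 1 was higher in other ASO-L1 and in low-mitochondrial SO-L1 cells with thinned cells. Some genes had too few UMIs in 8C-gene cells to give a value. Depth limits TET2 in 8C-gene cells of SO-L1, with 20 UMIs in low-mitochondrial and 13 in other cells.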
